A study of Mus musculus with 3 samples.

Results

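Thyroid hormone receptors, transport and classic response genes of the liver are described here through 9 genes, chosen by symbol for their known roles from a deposited expression table of 35275 genes. They are the nuclear receptors Thra and Thrb, the deiodinase Dio1, the membrane transporter Slc16a10, the plasma carriers Serpina7 and Ttr, and the response genes Thrsp, Hr and Klf9. All 9 were found, each on 1 row. The genes and the wider lists below were chosen with earlier results of these data known. The clock, acute phase, lipogenic and carrier lists were added after the values were seen. Shares of all genes given beside their counts are for scale and test nothing. Bulk polyA RNA of liver from male C57BL/6J mice, 10 weeks old when the diets began, was sequenced as 3 libraries, 1 library per group. TH-treated NASH is the library of mice fed a western diet with liquid fructose for 16 weeks, which then had T3 and T4 in drinking water with 15% fructose for 8 weeks. The label assigns 35 ng/g to T3 and 7 ng/g to T4 and gives no dosing interval. The NASH library (nonalcoholic steatohepatitis) came from mice on that diet without hormone, and its label names 24 weeks. The control library came from untreated mice on normal chow. No genotype other than the strain is given, pooling of animals is not mentioned, and since every group is a single library, differences could not be set against replicates and carry no p-value.

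In mammals the thyroid gland releases mostly T4, which travels in blood bound to carrier proteins that the liver secretes, enters cells through membrane transporters and is turned into the more active T3 by deiodinases. T3 binds the receptors, which sit on DNA with retinoid X receptors, releasing corepressors and recruiting coactivators. In liver the hormone is known for driving lipid synthesis and oxidation, cholesterol clearance and glucose output, and for raising Dio1 itself.

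Values are FPKM, which divide the fragments of a gene by its length and by the library's total on genes, and so may be set side by side between genes. Folds are given as one FPKM value divided by the other. The range after a value or fold is a 95% interval that covers counting error only, Poisson for a level and exact conditional binomial for a fold. At the depth of these libraries such intervals are narrow for abundant transcripts, so their lack of overlap does not set a gene apart. Those of Rxra, a retinoid X receptor, were 116 to 119 FPKM in TH-treated NASH, 98.2 to 101 in NASH and 109 to 112 in control. The share of all genes without overlap was not counted. For counts of genes a second scale is used, the log2 ratio of FPKM + 1, which understates the fold of low genes. A gene counted as called when 1 of the libraries compared, or both, had it at 1 FPKM or above and it lay at least 2-fold apart on that scale.

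The libraries held 38303410 fragments on genes in TH-treated NASH, 47009255 in NASH and 54576236 in control. All 9 hepatocyte markers found, of 10 listed, were at least 92.6 FPKM in every library, as the liver label has it. They summed to 40614 FPKM in TH-treated NASH, 43881 in NASH and 60840 in control. Alb, the most abundant, stood at 14907, 20265 and 32685 FPKM in that order. The markers did not all follow the sum. Their median log2 ratio was 0.30 in TH-treated NASH against NASH, beside -0.03 over all genes. It was -0.52 in NASH against control, beside 0.12. The 7 Kupffer cell and macrophage markers summed to 494 FPKM in TH-treated NASH, 266 in NASH and 100.2 in control. Of these, 3 were called higher in TH-treated NASH than in NASH and none lower, beside 2.73% and 2.77% of all genes. Cd68 was lower, at 16.0 against 20.3 FPKM. The 5 lipid-associated macrophage markers went the other way, with sums of 84.6 FPKM in TH-treated NASH, 154 in NASH and 49.7 in control. Against NASH 2 of those 5 were called lower and none higher. The 7 stellate cell markers summed to 98.5, 140 and 72.3 FPKM in the same order of libraries. Dcn made up most of each sum, at 79.3, 101 and 57.2 FPKM, and against NASH 2 of the 7 were called lower and none higher. Thyroid gland markers summed to 0.0896, 0.171 and 0.0444 FPKM over 5 genes, in the order TH-treated NASH, NASH and control, and no library held more than 26 fragments of them. The 4 Y-linked genes summed to 38.4, 36.7 and 33.6 FPKM in that order and Xist had at most 0.0113 FPKM, as the male label has it. The TH-treated NASH library stood apart in other respects. Its 12 male-biased liver genes summed to 1791 FPKM, against 11571 in NASH and 9053 in control. Mup20 made up most of each sum, at 1177, 10157 and 7015 FPKM in that order. Against NASH, 7 of the 12 were called lower and 2 higher, beside 2.77% and 2.73% of all genes. The 13 female-biased liver genes summed to 361 FPKM in TH-treated NASH, against 24.5 in NASH and 9.67 in control. Of the 10 at 1 FPKM or more in any library, 8 were called higher than in NASH and none lower. The filter fixed part of that count. Several of the 8, Cyp3a44 and Sult2a1 among them, met it through the TH-treated NASH library alone and could not have been called lower. In the order TH-treated NASH, NASH and control, Cyp3a44 stood at 97.4, 0 and 0 FPKM and Sult2a1 at 5.99, 0.0209 and 0. Cyp17a1, at 207, 14.5 and 4.57 FPKM, and Cyp2a4, at 21.3, 1.15 and 0.0640 FPKM, also met it in NASH. In TH-treated NASH the 5 erythroid genes summed to 1757 FPKM, against 391 in NASH and 316 in control. The 4 globin genes carry that sum, while Alas2, the heme synthesis enzyme of red cell precursors, was at 22.8 FPKM in TH-treated NASH, 44.3 in NASH and 60.5 in control. Its 10 acute phase genes summed to 30635 FPKM, against 8715 in NASH and 12654 in control. The part of these differences in the results below was not tested.

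**Figure D1:**
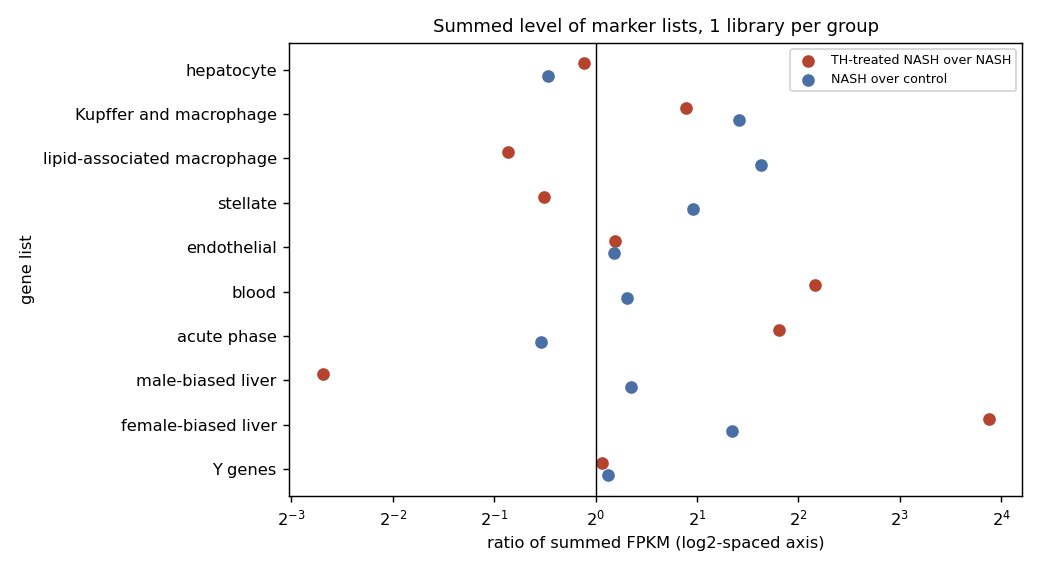
Ratio of summed FPKM (log2-spaced horizontal axis) for 10 gene lists, TH-treated NASH over NASH in red and NASH over control in blue, 1 library per group. Female-biased liver genes lie furthest right and male-biased liver genes furthest left in TH-treated NASH over NASH, while the Y genes lie near 1 in both.

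Promoters of the genes are shown because the receptors act by binding DNA near their targets. RefSeq sequence of build GRCm38.p6 was matched by symbol for 6 of the 9 genes, at 8 start sites: Dio1, Thrsp, Slc16a10, Thrb, Klf9 and Serpina7. Each of the 5 sequences below is the 250 bases before a start site, 5′ to 3′ on the strand of the gene. They belong to Dio1 (chr4:107307169-107307418, minus strand) and Serpina7 (chrX:139085237-139085486, minus strand), the genes furthest apart between TH-treated NASH and NASH, to the response genes Thrsp (chr7:97417551-97417800, minus strand) and Klf9 (chr19:23140976-23141225, plus strand), and to Thrb (chr14:17660710-17660959, plus strand). Capitals mark matches on either strand to any of 6 motifs. The core hexamer of a thyroid hormone response element was searched as AGGTCA. The other motifs were the basal promoter box TATAAA, the Sp1 box GGGCGG, the E-box spelled CACGTG, part of the site of liver factor HNF1 spelled GTTAAT and the NF-Y box CCAAT.
Dio1: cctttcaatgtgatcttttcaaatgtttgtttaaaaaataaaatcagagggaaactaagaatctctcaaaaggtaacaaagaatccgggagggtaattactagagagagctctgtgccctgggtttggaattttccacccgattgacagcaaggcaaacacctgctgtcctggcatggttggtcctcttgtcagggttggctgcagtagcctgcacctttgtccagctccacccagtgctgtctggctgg
Serpina7: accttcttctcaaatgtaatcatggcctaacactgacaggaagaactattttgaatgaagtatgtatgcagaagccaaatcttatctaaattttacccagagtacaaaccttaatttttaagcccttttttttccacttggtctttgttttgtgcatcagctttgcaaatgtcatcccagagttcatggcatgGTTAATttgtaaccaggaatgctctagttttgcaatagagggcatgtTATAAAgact
Thrsp: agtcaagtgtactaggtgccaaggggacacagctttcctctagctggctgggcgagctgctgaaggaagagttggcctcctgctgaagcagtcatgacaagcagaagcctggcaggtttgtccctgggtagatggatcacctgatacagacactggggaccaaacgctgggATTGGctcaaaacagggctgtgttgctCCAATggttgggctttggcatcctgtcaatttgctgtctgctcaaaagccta
Klf9: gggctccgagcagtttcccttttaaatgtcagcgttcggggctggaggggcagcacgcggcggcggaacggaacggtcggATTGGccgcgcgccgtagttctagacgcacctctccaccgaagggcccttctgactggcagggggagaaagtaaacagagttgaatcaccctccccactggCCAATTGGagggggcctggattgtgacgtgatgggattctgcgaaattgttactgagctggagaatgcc
Thrb: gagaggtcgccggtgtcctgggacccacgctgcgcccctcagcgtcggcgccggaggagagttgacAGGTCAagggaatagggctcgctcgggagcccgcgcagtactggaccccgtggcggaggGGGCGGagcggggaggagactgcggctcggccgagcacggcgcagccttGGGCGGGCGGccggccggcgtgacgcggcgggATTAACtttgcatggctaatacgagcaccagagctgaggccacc

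The AGGTCA hexamer was in 1 of these 5 windows, that of Thrb, 184 to 179 bases before the start. The window of another Thrb start site (chr14:17981394-17981643), not shown, held no AGGTCA but did hold TATAAA and CACGTG. The hexamer was in 14.02% of 32851 promoter windows of the same length. The repeat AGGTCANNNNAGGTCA, in which 4 bases part a pair of hexamers, was in 5 of them (0.0152%) and in none of the 8 windows of these genes. The Dio1 window held none of the 6 short motifs. Thrsp held an NF-Y box on each strand, at 79 to 75 and 52 to 48 bases before the RefSeq start, and Klf9 held 3, of which 1 pair overlaps in the run CCAATTGG. The deposited Thrsp gene reaches further upstream than that RefSeq start, to position 97417730. The windows of Serpina7, Klf9 and Thrb abut their deposited genes to the base, so both sources use the same positions. Much of the Thrsp window, both NF-Y boxes included, thus lies inside the gene as measured. CCAAT was in 33.8% of all windows. Serpina7 held GTTAAT, found in 6.43% of windows, and TATAAA, found in 12.4%. Thrb also held 3 Sp1 boxes, 2 of them overlapping, and GTTAAT on its minus strand, and GGGCGG was in 32.7% of all windows. The base composition differed widely, with 36.0% G and C in the Serpina7 window, 46.8% in Dio1, 53.6% in Thrsp, 59.6% in Klf9 and 71.6% in Thrb, beside a median of 52.4% over all windows. These matches describe letters only.

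Set against NASH, TH-treated NASH shows liver transcripts of mice with hormone added to the diet. Of the 9 genes, 2 were called, Dio1 higher and Serpina7 lower, beside 5.5% of 11734 genes compared (2.73% higher and 2.77% lower). Of the genes called, 49.6% were higher, and 37.8% after scaling the libraries to equal sums of FPKM. At 1.5-fold 4 were called, Dio1 higher and Thra, Serpina7 and Ttr lower, beside 17.5% of genes. The median log2 ratio over all genes compared was -0.03. Of the response genes Thrsp, Hr and Klf9, none was called in this pair at either threshold.

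**Figure D2:**
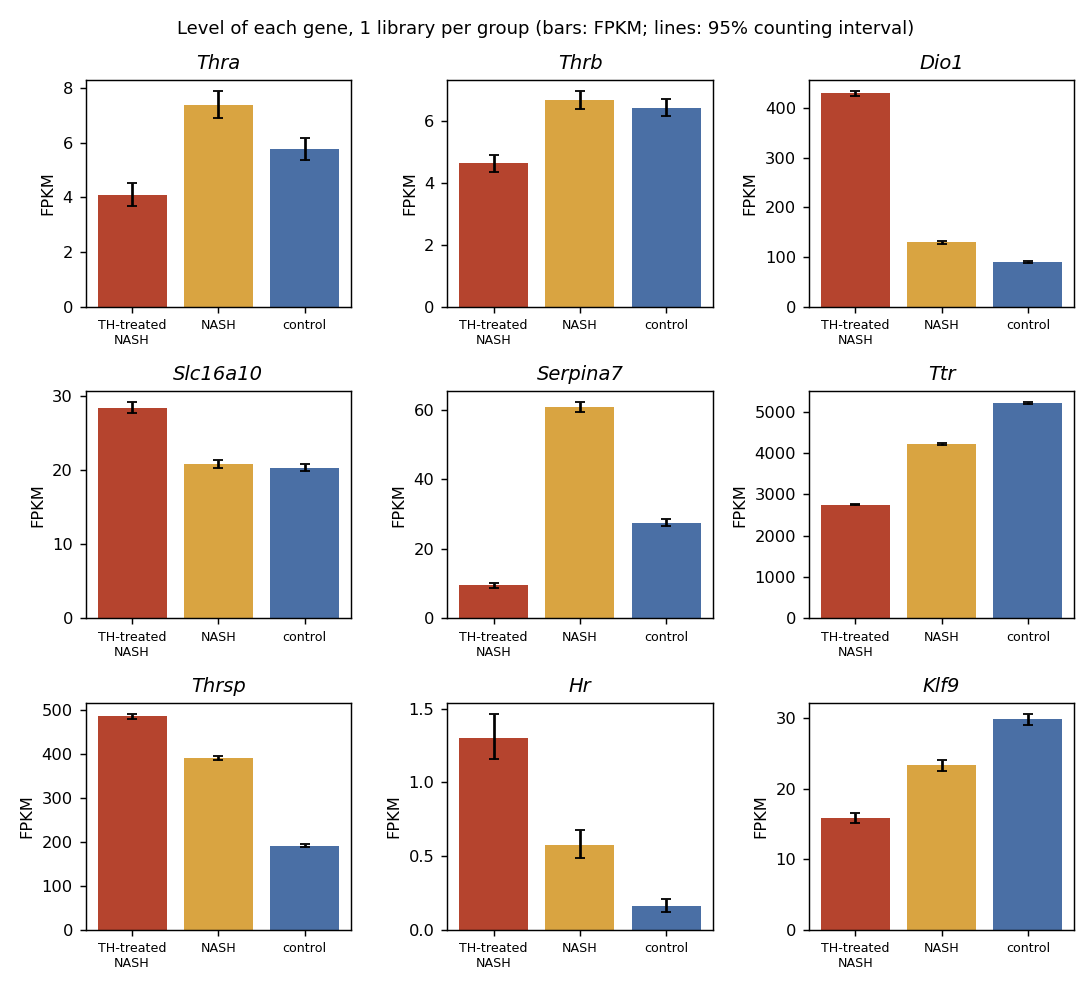
Level of each of the 9 genes in FPKM (vertical axes start at 0 and differ between panels) in TH-treated NASH, NASH and control, 1 library each, with 95% counting intervals as lines. Dio1 stands at 429.7 FPKM in TH-treated NASH, above the other libraries, and Serpina7 at 60.8 FPKM in NASH, above the other libraries.

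Dio1 (ENSMUSG00000034785) encodes type 1 deiodinase, a selenoenzyme that makes T3 from T4 and clears reverse T3. It stood at 429.7 FPKM (425 to 435) in TH-treated NASH, 129 FPKM (127 to 132) in NASH and 90.3 FPKM (88.4 to 92.3) in control. The TH-treated NASH library was high and the counting intervals of the 3 libraries did not overlap. Dio1 was 3.32-fold higher in TH-treated NASH than in NASH (3.25 to 3.40), and 98 of the 11734 genes compared had a higher log2 ratio than its 1.72. Among protein-coding genes its level ranked 180 in TH-treated NASH, 545 in NASH and 724 in control. The other deiodinases were at or near 0: Dio2, which makes T3 in pituitary, brain and brown fat, had 0 fragments in each library, which allows up to 0.0135 FPKM in TH-treated NASH, 0.0110 in NASH and 0.00946 in control from 3 counts, and Dio3, which inactivates the hormones, had at most 0.105 FPKM.

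Thrsp (ENSMUSG00000035686), also called Spot 14, is a small protein of lipogenic tissues long used as a marker of thyroid hormone action. It stood at 485 FPKM (479 to 491) in TH-treated NASH, 390 FPKM (385 to 395) in NASH and 191 FPKM (188 to 194) in control. The libraries were ordered TH-treated NASH, NASH, control with no overlap of counting intervals. In TH-treated NASH it was 1.24-fold higher than in NASH (1.22 to 1.27), which is short of the 2-fold that counted as called, and 2271 genes had a higher log2 ratio. Other lipogenic genes beside it went both ways in the same pair. Pnpla3, a lipid droplet hydrolase, was at 4.85 FPKM in TH-treated NASH and 1.05 in NASH, whereas the desaturase gene Scd1 was at 2514 and 6747 FPKM, and Srebf1, a lipogenic transcription factor, at 38.4 and 125 FPKM, in the same order. Of 11 such genes 1 was called higher and 3 lower, beside 2.73% and 2.77% of all genes. The median of their log2 ratios was 0.12, beside -0.03 over all genes.

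Hr (ENSMUSG00000022096) encodes hairless, a corepressor that binds thyroid hormone receptors and is itself hormone-induced in rodent brain. It was the lowest of the 9, at 1.30 FPKM (1.16 to 1.47) in TH-treated NASH, 0.577 FPKM (0.489 to 0.676) in NASH and 0.160 FPKM (0.118 to 0.212) in control, on 280, 152 and 49 fragments in that order. The order was that of Dio1 and Thrsp, again with no overlap of counting intervals. As a ratio of FPKM it was 2.26-fold higher in TH-treated NASH than in NASH (1.85 to 2.77), but on the log2 scale of FPKM + 1 the ratio was 0.55 and it was not called. With a pseudocount of 0.1 FPKM in place of 1 the log2 ratio was 1.05 and Hr was called.

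Klf9 (ENSMUSG00000033863) encodes a zinc finger transcription factor that T3 and glucocorticoids induce in rodent cells. It stood at 15.9 FPKM (15.2 to 16.6) in TH-treated NASH, 23.3 FPKM (22.6 to 24.1) in NASH and 29.9 FPKM (29.1 to 30.7) in control, the reverse order of the other response genes. In TH-treated NASH it was 1.47-fold lower than in NASH (1.39 to 1.55), and 1279 genes had a lower log2 ratio than its -0.53. Klf9 is also under clock control in mice. Of 8 clock and output genes at 1 FPKM or more in any library, 1 passed 1.5-fold as higher and 2 as lower in TH-treated NASH than in NASH, and none passed 2-fold. Of all genes 17.5% passed 1.5-fold and 5.5% passed 2-fold in either direction. The genes past 1.5-fold were Ciart, a clock repressor, at 7.84 FPKM in TH-treated NASH and 4.53 in NASH, Per2, another clock repressor, at 3.47 and 6.33 FPKM, and Nr1d1, the clock repressor REV-ERB alpha, at 16.9 and 33.0 FPKM, in the same order. The time of collection is not given in the labels, and its part was not tested.

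Both receptors were lower in TH-treated NASH than in NASH. Thra (ENSMUSG00000058756), the receptor of heart, brain and bone, stood at 4.09 FPKM (3.69 to 4.52) in TH-treated NASH, 7.40 FPKM (6.91 to 7.91) in NASH and 5.77 FPKM (5.37 to 6.19) in control. Thrb (ENSMUSG00000021779), whose beta 1 form is the main receptor protein of hepatocytes, stood at 4.64 FPKM (4.36 to 4.92), 6.69 FPKM (6.39 to 6.99) and 6.43 FPKM (6.16 to 6.71) in the same order. TH-treated NASH was the low library for each, with no overlap of its counting interval with the others, while for Thrb the intervals of NASH and control overlapped. The receptors were 1.81-fold (1.60 to 2.05) and 1.44-fold (1.34 to 1.55) lower in TH-treated NASH than in NASH, Thra first, and neither was called at 2-fold.

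Per length, Thra and Thrb were close to each other in every library. Thra stood at 0.882 times the level of Thrb in TH-treated NASH (0.783 to 0.992), 1.11 times in NASH (1.02 to 1.20) and 0.897 times in control (0.825 to 0.975). A gene-level value does not part the hormone-binding from the non-binding form of Thra. Over 1075 bases Thra also overlaps Nr1d1 on the opposite strand, and no strand mode is given, so fragments there cannot be told apart. In control Nr1d1 was at 34.2 FPKM, beside the values above.

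Of the partners and coregulators of the receptors, all 20 were at 1 FPKM or more in some library. None was called in TH-treated NASH against NASH, beside 5.5% of all genes. The median log2 ratio was -0.04, beside -0.03 over all genes. Rxra, the main retinoid X receptor of liver, stood at 117 FPKM in TH-treated NASH, 99.5 in NASH and 111 in control. The largest differences were in Tbl1x, a subunit of the NCOR corepressor complex, at 4.72 FPKM in TH-treated NASH and 8.21 in NASH, and in the coactivator Ppargc1a, at 2.38 FPKM in TH-treated NASH and 1.33 in NASH. Next came the acetyltransferase Ep300, at 2.44 and 3.61 FPKM, and the coactivator Ncoa2, at 3.93 and 5.39 FPKM, in the same order. The corepressor gene Ncor1 stood at 6.82 FPKM in TH-treated NASH and 9.05 in NASH.

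The plasma carriers were lower in TH-treated NASH, Serpina7 by far the most. Serpina7 (ENSMUSG00000031271) encodes thyroxine-binding globulin, the carrier with the highest affinity for T4, whose synthesis thyroid hormone is known to lower in rats. It stood at 9.43 FPKM (8.81 to 10.1) in TH-treated NASH, 60.8 FPKM (59.4 to 62.3) in NASH and 27.5 FPKM (26.6 to 28.5) in control. NASH was the high library and TH-treated NASH the low one, with no overlap. The gene was 6.45-fold lower in TH-treated NASH than in NASH (6.00 to 6.94), and 22 of 11734 genes had a lower log2 ratio than its -2.57.

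Ttr (ENSMUSG00000061808) encodes transthyretin, which carries T4 and, with retinol-binding protein, vitamin A. It stood at 2743 FPKM (2728 to 2758) in TH-treated NASH, 4219 FPKM (4202 to 4235) in NASH and 5210 FPKM (5193 to 5228) in control, among the 28 most abundant protein-coding genes in each library. It was 1.54-fold lower in TH-treated NASH than in NASH (1.53 to 1.55). Albumin, the bulk carrier of low affinity, stood at 14907 FPKM in TH-treated NASH, 20265 in NASH and 32685 in control. Per length, Ttr was 291 times the level of Serpina7 in TH-treated NASH (272 to 312), 69.3 times in NASH (67.7 to 71.1) and 189 times in control (183 to 196). Of 5 other plasma carriers at 1 FPKM or more, albumin among them, 1 was called higher and none lower. Of all genes 2.73% were called higher and 2.77% lower. The carrier called was Hpx, hemopexin, which is also an acute phase protein, at 7243 FPKM in TH-treated NASH and 2977 in NASH. Those not called included Rbp4, the retinol carrier that joins Ttr, at 2746 FPKM in TH-treated NASH and 2514 in NASH, Serpina6, the corticosteroid carrier of the same serpin family, at 155 and 94.2 FPKM, and Gc, the vitamin D carrier, at 1922 and 2839 FPKM, in the same order. Ttr and albumin fall in the acute phase response in mammals, and the acute phase genes Saa2 and Hp stood at 4817 and 8143 FPKM in TH-treated NASH, against 263 and 3353 FPKM in NASH. Of 10 acute phase genes, a list added after the values were seen, 9 were called higher in that pair, beside 2.73% of all genes. Their part in the lower carriers was not tested.

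Slc16a10 (ENSMUSG00000019838), the aromatic amino acid transporter MCT10 that also moves T3, stood at 28.5 FPKM (27.7 to 29.2) in TH-treated NASH, 20.8 FPKM (20.2 to 21.4) in NASH and 20.3 FPKM (19.8 to 20.9) in control. TH-treated NASH was the high library, and the intervals of NASH and control overlapped. It was 1.37-fold higher in TH-treated NASH than in NASH (1.32 to 1.42). Among the other hormone transporters 10 of 11 reached 1 FPKM, of which none was called higher and 1 lower, beside 2.77% of all genes called lower. Their median log2 ratio was -0.33, beside -0.03 over all genes. The gene called was Slco1a4, an organic anion transporter, at 2.45 FPKM in TH-treated NASH and 6.76 in NASH. The hepatic uptake transporter Slco1b2 stood at 213 FPKM in TH-treated NASH and 351 in NASH. Slc17a4, a transporter of organic anions and thyroid hormone, stood at 15.5 and 27.2 FPKM, and Slc7a5, an amino acid exchanger, at 2.20 and 0.804 FPKM, in the same order.

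A further list held the other deiodinases, conjugating enzymes and other genes of hormone handling, among them albumin, the deconjugating enzyme Gusb and the selenoprotein translation factor Secisbp2. Of its 11 genes at 1 FPKM or more, 1 was called higher and 3 lower in TH-treated NASH than in NASH, beside 2.73% and 2.77% of all genes, and their median log2 ratio was -0.09, beside -0.03. All 4 called are conjugating enzymes. Sult1a1, a sulfotransferase that acts on phenols including iodothyronines, stood at 427 FPKM in TH-treated NASH and 180 in NASH, 2.37-fold higher (2.31 to 2.42). Sult1b1, another sulfotransferase of thyroid hormones, stood at 3.72 and 9.84 FPKM in the same order. Ugt1a1, the bilirubin and T4 glucuronosyltransferase, stood at 18.5 FPKM in TH-treated NASH and 55.5 in NASH, and Ugt1a9 at 1.82 and 5.22 FPKM. Ugt1a genes share their last exons, so the split of fragments among them is uncertain.

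Of 16 further genes that thyroid hormone is known to raise in liver, 3 were called higher and none lower in TH-treated NASH than in NASH. Of all genes 2.73% were called higher and 2.77% lower. The median log2 ratio of the 16 was 0.23, beside -0.03 over all genes. Pdk4, a kinase that shuts off pyruvate oxidation, stood at 11.0 FPKM in TH-treated NASH and 2.40 in NASH, 4.57-fold higher (4.08 to 5.12). The hepatokine Fgf21 stood at 24.03 and 9.72 FPKM, and G6pc, the last enzyme of glucose output, at 151 and 67.4 FPKM, in that order. Targets that were not called included Me1, malic enzyme, at 113 FPKM in TH-treated NASH and 94.6 in NASH, Gpd2, the mitochondrial glycerol phosphate dehydrogenase, at 11.4 and 7.12, Cpt1a, the entry step of fatty acid oxidation, at 139 and 130, and Cyp7a1, the rate-limiting enzyme of bile acid synthesis, at 32.2 and 35.8.

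**Figure D3:**
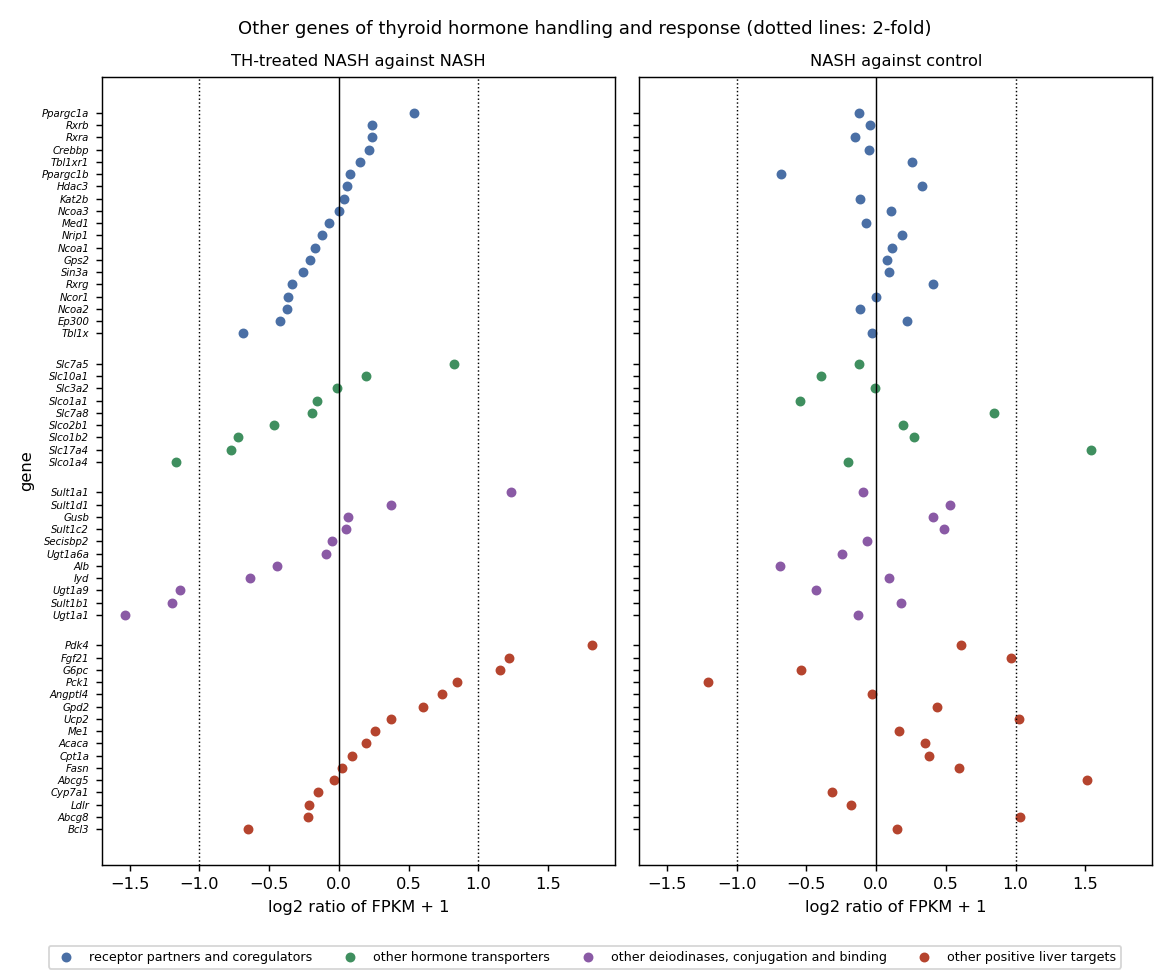
Log2 ratio of FPKM + 1 for genes of 4 lists with at least 1 FPKM in any library, TH-treated NASH against NASH on the left and NASH against control on the right, with dotted lines at 2-fold. Coregulators stay inside the dotted lines in both panels, while Pdk4, Fgf21, G6pc and Sult1a1 lie past the right line in the left panel.

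NASH against control, the diet comparison, asked how fatty liver disease differed from liver on chow. Of 8 genes compared, Serpina7 and Thrsp were called, both higher, beside 4.1% of 11499 genes called (3.33% higher and 0.774% lower). Of the genes called, 81.1% were higher, 68.4% with TMM (trimmed mean) scaling and 65.6% with median-of-ratios scaling. At 1.5-fold the same 2 were called, beside 13.1% of genes. The 8 leave out Hr, which was below 1 FPKM in both libraries. The median log2 ratio of all genes was 0.12 in this pair. With TMM or median-of-ratios scaling, which move that median to -0.03 and -0.06, none of the 8 was called: Serpina7 had log2 ratios of 0.94 and 0.90 and Thrsp of 0.85 and 0.81, in that order of scaling.

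Serpina7 was 2.21-fold higher in NASH than in control (2.12 to 2.30) and Thrsp 2.04-fold higher (1.996 to 2.08). Dio1 was 1.43-fold higher (1.39 to 1.47) and Thra 1.28-fold higher (1.16 to 1.42), and Hr was 3.60-fold higher (2.59 to 5.08) as a ratio of FPKM. Ttr was 1.24-fold lower in NASH (1.23 to 1.24) and Klf9 1.28-fold lower (1.23 to 1.34). For Thrb the fold of 1.04 (0.977 to 1.11) and for Slc16a10 that of 1.02 (0.985 to 1.06) had intervals that include 1. The intervals of the other genes leave out 1, but all of them cover counting error only and not the spread between animals. The log2 ratios of Thrb and Slc16a10 turned negative with TMM and with median-of-ratios scaling. That of Thra fell from 0.31 to 0.16 and 0.12, in that order of scaling.

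Around these genes, 20 receptor partners and coregulators had none called in NASH against control, and the 1.5-fold mark was passed only by the coactivator Ppargc1b, at 1.12 FPKM in NASH and 2.40 in control. Of the 10 other transporters 1 was called, Slc17a4, at 27.2 FPKM in NASH and 8.70 in control. Of the 11 conjugating and binding genes none was called. Of the 16 further targets 3 were called higher and 1 lower, beside 3.33% and 0.774% of all genes. The median of their log2 ratios was 0.36, beside 0.12 over all genes. The sterol exporter Abcg5 was at 81.3 FPKM in NASH and 27.8 in control, its partner Abcg8 at 47.1 and 22.5 FPKM, and the uncoupling protein gene Ucp2 at 17.3 and 7.99 FPKM. Pck1, the rate-controlling enzyme of gluconeogenesis, stood lower, at 552 FPKM in NASH and 1273 in control. Scd1, Srebf1 and Pklr (liver pyruvate kinase), which act in lipogenesis as Thrsp does, stood at 6747, 125 and 152 FPKM in NASH, against 1786, 55.5 and 82.2 FPKM in control. The 11 lipogenic genes listed beside Thrsp did not all differ so much. Of them 2 were called higher and none lower in this pair, beside 3.33% and 0.774% of all genes. Their median log2 ratio was 0.35, beside 0.12.

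TH-treated NASH against control sets hormone and diet together against chow. It shares the TH-treated NASH library with the first comparison and the control library with the second, so it adds no separate evidence. Of the 9 genes 3 were called, Dio1 and Thrsp higher and Serpina7 lower, beside 7.99% of 11474 genes (5.57% higher and 2.42% lower). Of the genes called, 69.7% were higher, 53.4% with TMM and 55.3% with median-of-ratios scaling. At 1.5-fold 6 were called, those 3 with Hr higher and Ttr and Klf9 lower, beside 22.8% of genes. Dio1 was 4.76-fold higher in TH-treated NASH than in control (4.64 to 4.87), Thrsp 2.54-fold higher (2.48 to 2.59) and Hr 8.14-fold higher as a ratio of FPKM (5.99 to 11.3). Serpina7 was 2.92-fold lower (2.71 to 3.15), Ttr 1.90-fold lower (1.89 to 1.91) and Klf9 1.88-fold lower (1.79 to 1.98). With TMM and with median-of-ratios scaling Ttr and Klf9 were called too, so that 5 of the 9 were called under each. None of the 20 receptor partners and coregulators was called in this pair. Of the 10 other transporters 1 was called, Slco1a4, lower at 2.45 FPKM in TH-treated NASH and 7.93 in control, and of the 11 conjugating and binding genes 1 was called higher and 4 lower, Sult1a1 at 427 against 193 FPKM and Ugt1a1 at 18.5 against 60.7 FPKM among them. Of the 16 further targets 5 were called higher and none lower, among them Pdk4 at 8.95-fold (7.79 to 10.3) and Fgf21 at 5.37-fold (4.64 to 6.25).

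**Figure D4:**
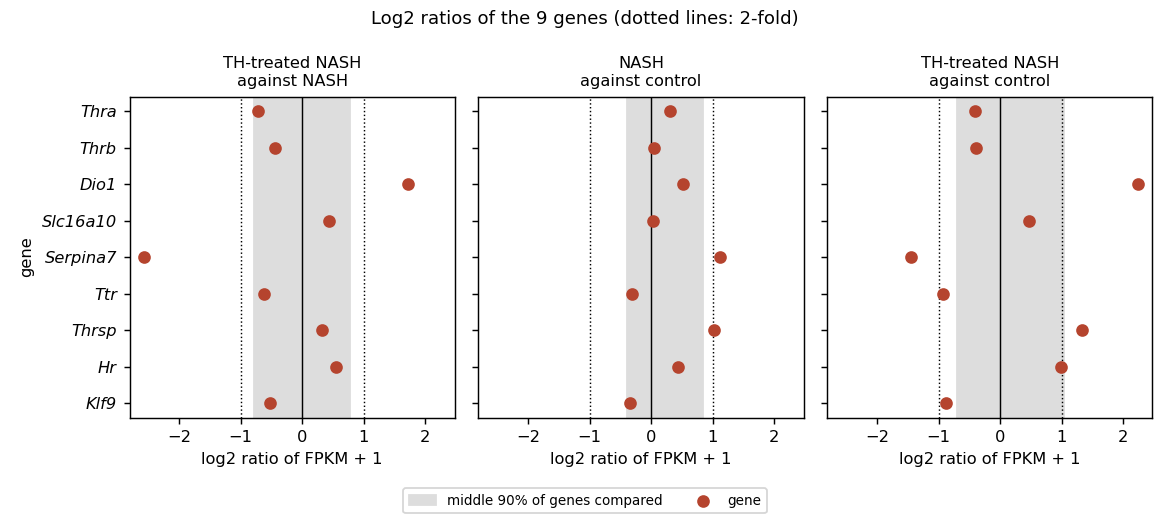
Log2 ratio of FPKM + 1 for the 9 genes in the 3 comparisons, with the middle 90% of genes compared as a grey band and dotted lines at 2-fold. Dio1 and Serpina7 lie outside the dotted lines on opposite sides in TH-treated NASH against NASH, at 1.72 and -2.57.

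Serpina7 was the 1 gene of the 9 called in opposite directions, lower in TH-treated NASH than in NASH and higher in NASH than in control. The second call was lost with TMM and with median-of-ratios scaling, and both ratios share the single NASH library. In TH-treated NASH it lay below control as well. Dio1, Thrsp and Hr had the same order of libraries, highest in TH-treated NASH and lowest in control, and Ttr and Klf9 had the opposite order. Thra was highest in NASH and lowest in TH-treated NASH. In bulk tissue, fewer cells of a type and less RNA per cell cannot be told apart.

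Genes with the most similar pattern over the 3 libraries were found by the distance between pairs of log2 ratios (NASH over control and TH-treated NASH over NASH), among 6891 protein-coding genes of at least 5 FPKM in any library. Among the nearest to Dio1 were Pdk4 at a distance of 0.134 and Pfkfb4, a regulator of glycolysis, at 0.226, and no gene lay within 0.1. Nearest to Thrsp were AI607873 at 0.0523, Ucp2 at 0.0598 and the interferon-induced gene Ifit1 at 0.0700, of 9 genes within 0.1. Nearest to Klf9 were Zfc3h1 at 0.00889, Mug1 at 0.0154 and Pdia4 at 0.0238, of 18 within 0.1. With 3 libraries, such likeness rests on a pair of numbers per gene. At a few FPKM the pseudocount sets part of a log2 ratio, and below about 1 FPKM much of it. Likeness on this scale therefore need not be likeness in fold. That bears on Pfkfb4, at 6.23 FPKM in TH-treated NASH, 0.871 in NASH and 0.306 in control. Pdk4, at 11.0, 2.40 and 1.23 FPKM in that order, and AI607873, at 5.16, 3.89 and 1.49 FPKM, are touched as well. Pdk4 was 4.57-fold higher in TH-treated NASH than in NASH and 1.96-fold higher in NASH than in control. Dio1 was 3.32-fold and 1.43-fold higher in those pairs. The limit bears most on Hr, whose nearest gene by this measure, Mdp1, stood at 17.0, 11.4 and 7.94 FPKM in the same order of libraries, and no gene is given as like Hr.

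In the deposited table, whose genome build no source used here names, Dio1 lies on chromosome 4 from 107291465 to 107307169, Thrsp on chromosome 7 from 97412938 to 97417730 and Hr on chromosome 14 from 70552212 to 70573548. Thrb also lies on chromosome 14, from 17660960 to 18038088, Klf9 on chromosome 19 from 23141226 to 23166911, Thra on chromosome 11 from 98740638 to 98769006 and Slc16a10 on chromosome 10 from 40033535 to 40142254. Serpina7 lies on chromosome X from 139079257 to 139085236 and Ttr on chromosome 18 from 20665250 to 20674324. All 9 are annotated there as protein-coding, and the values cover each gene as a whole.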

How the data were processed

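The authors deposited FPKM per gene for each library, with gene lengths and positions. The submitters' processing notes name TopHat2 and HTSeq, and no source used here gives their versions, settings or strand mode or the genome build. Columns were matched to samples by their source names. FPKM multiplied by the deposited gene length came in whole multiples of 1 fragment (100% of values above 0 within 0.01 fragment), which gave the fragments behind each value. For a 2 kb gene at 0 fragments, the level allowed was up to 0.0392 FPKM in TH-treated NASH, 0.0319 in NASH and 0.0275 in control, from 3 counts. Because reads can be PCR copies of 1 molecule, these limits and the intervals cover counting error only.

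Log2 ratios used a pseudocount of 1 FPKM, and called means at least 2-fold among genes that reached 1 FPKM in the pair. Wider lists count genes with at least 1 FPKM in any library. With 1 library per group no test was run. Named were all 9 genes, up to 4 genes per wider list and comparison with the largest log2 ratio, the 3 nearest patterns of Dio1, Thrsp, Hr and Klf9 (for Hr set aside, since the pseudocount fixes its log2 ratios), and further list and marker genes chosen after their values were seen. The genes and lists were chosen with earlier results of these data known. The clock, acute phase, lipogenic and carrier lists were added after the values were seen. Alternatives were other pseudocounts, filters, scalings, gene types and thresholds. Some genes of the lists and nearest patterns enter the counts and medians but are not reported here by name or plotted singly. The steps were tested on simulated data. Python 3.11.15 with pandas 2.3.3, numpy 2.4.6 and scipy 1.17.1 was used.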

Additional observations from a re-analysis of the deposited data

How the results depend on the processing

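No paired analysis was possible because each group has 1 library. Of 162 log2 ratios of the 9 genes under other pseudocounts and scalings, 92 stayed within the counting interval of the value as reported, 70 moved outside it, and 4 took the opposite sign, Thrb and Slc16a10 in NASH against control with TMM and median-of-ratios scaling. No called gene changed direction. In TH-treated NASH against NASH, 2 of the 9 were called as reported, 3 with a pseudocount of 0.1 FPKM, which adds Hr, 4 at 1.5-fold and 1 at 4-fold, while of all genes 645 were called as reported, 1149 and 317 with pseudocounts of 0.1 and 5 FPKM, and 2056 and 129 at 1.5-fold and 4-fold. In NASH against control, 2 were called as reported and 0 with median-of-ratios scaling, with TMM scaling or at 4-fold. Of all genes 472 were called as reported there, 1025 and 155 with those pseudocounts, 307 among genes of at least 5 FPKM, 770 after scaling to equal FPKM sums, and 1504 and 47 at those thresholds. In TH-treated NASH against control, 3 were called as reported, 4 with a pseudocount of 0.1 FPKM and 4 rescaled without the 50 most abundant genes, which each add Hr, 5 after scaling to equal FPKM sums, with median-of-ratios scaling and with TMM scaling, 6 at 1.5-fold and 1 at 4-fold. Of all genes 917 were called there, 1599 and 352 with those pseudocounts and 2618 and 148 at those thresholds. Scaling to equal FPKM sums also raises FPKM against the fixed pseudocount and filter. That scaling also moved the median log2 ratio of all genes in TH-treated NASH against NASH to -0.14. The cause of these shifts was not tested. Hr rests on few fragments, so its log2 ratio depends on the pseudocount.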
